A study of Mus musculus with 8 samples.

Results

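The regions described here are stretches of open chromatin that both Prog-like peak lists of the study held and that the other 3 lists did not hold. Peaks of all 5 deposited lists were merged wherever they overlapped by at least 1 bp, which gave 138775 union regions. A region was a member when it overlapped a peak of Prog-like CK19 and a peak of Prog-like Sox9 and no peak of EpCAM-high CK19, EpCAM-high Sox9 or Tumor Sox9. The members numbered 35772 (25.8% of the union, exact binomial 95% interval 25.55 to 26.01). Because they were selected on the presence and absence of peaks, their presence in the Prog-like lists is not a result. Their position, their grouping along the chromosomes, the genes beside them and the sequences of the promoters they covered are described below.

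The study profiled liver cells from an Rb family Triple Knock Out mouse, a model of hepatocellular carcinoma, by bulk ATAC-seq, which reads DNA that a transposase can reach. The labels list 8 samples in 5 groups, all with deletion of floxed alleles by Cre: EpCAM-high CK19 (2 samples), EpCAM-high Sox9 (1), Thy1+ CK19 (2), Thy1+ Sox9 (1) and EpCAM- (2). Cells from liver or macroscopic lesions were sorted for YFP, a reporter of Cre activity, and fractionated by surface Thy1 and EpCAM. The labels give no age, strain, sex or treatment agent, do not name what drives the Cre, and do not state what CK19 and Sox9 stand for in the names. Both EpCAM-high lists are named like sample groups, while no label uses the words Prog-like or Tumor, so those lists are tied to no sorted group here. With a single list for each condition the spread between replicates is not known and conditions were not tested against each other, and all intervals are exact (Clopper-Pearson) 95% intervals for counting error. Neighbouring regions are not independent, which makes the true uncertainty wider. Read depth is unknown, and in a bulk list a site open in a few cells cannot be told apart from a site open weakly in all of them.

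As background, genes are switched on from promoters at their start and from enhancers that can lie within them or far away, and both are usually nucleosome-free in the cells that use them. Enhancers that set a cell type's identity often lie in groups along the genes that define that cell. In macrophages the ETS factor PU.1 opens many such sites together with IRF, RUNX, AP-1 and MAF family factors, and Kupffer cells, the resident macrophages of the liver, further depend on LXRα, SPIC and ID3. Bile duct cells and liver progenitors instead rely on factors such as SOX9 and the TEAD partners of YAP.

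Sequence was at hand only for promoters, which few members cover. RefSeq promoter windows (GRCm38.p6, 250 bases before to 50 after an annotated start) were at hand for 17492 protein-coding genes, 21263 windows in all, and members overlapped 547 of them (2.57%), at 505 genes. The 8 letters GAGGAAGT, a purine-rich site of the kind PU.1 binds, or their reverse complement ACTTCCTC, were found in 66 of these windows. Below are stretches, written 5′ to 3′ on the gene's strand, from all 11 of these windows that belong to a gene of the lists or a gene named for its members. They are shown because the letters were more frequent in these windows than in all windows, as compared further on, and the capitals mark the match.
Ctss: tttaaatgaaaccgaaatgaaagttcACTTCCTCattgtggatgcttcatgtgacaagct
C1qc: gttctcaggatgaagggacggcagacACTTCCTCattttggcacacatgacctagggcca
Cd300lf: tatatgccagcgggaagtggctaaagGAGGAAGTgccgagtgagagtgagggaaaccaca
Cd53: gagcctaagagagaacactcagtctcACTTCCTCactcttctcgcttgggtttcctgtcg
Inpp5d: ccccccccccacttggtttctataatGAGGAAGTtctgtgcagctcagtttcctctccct
Vav1: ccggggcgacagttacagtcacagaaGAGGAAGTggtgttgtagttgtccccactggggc
Tlr1: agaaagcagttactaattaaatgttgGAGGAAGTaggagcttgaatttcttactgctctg
Tlr9: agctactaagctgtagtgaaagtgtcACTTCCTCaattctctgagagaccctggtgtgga
Adora3: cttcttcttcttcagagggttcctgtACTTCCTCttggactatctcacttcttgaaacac
I830077J02Rik: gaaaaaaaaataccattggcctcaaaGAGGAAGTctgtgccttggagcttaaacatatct
S100a8: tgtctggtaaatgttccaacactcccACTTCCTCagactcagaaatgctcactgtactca
The windows they come from are chr3:95526536-95526835 (plus strand), chr4:136892865-136893164 (minus strand), chr11:115133943-115134242 (minus strand), chr3:106790100-106790399 (minus strand), chr1:87620062-87620361 (plus strand), chr17:57278850-57279149 (plus strand), chr5:64933509-64933808 (minus strand), chr9:106222348-106222647 (plus strand), chr3:105904171-105904470 (plus strand), chr3:105932615-105932914 (minus strand) and chr3:90668821-90669120 (plus strand), in the order shown. Counted along the gene's strand with the annotated start as 0, the match began at -2 in Ctss, 0 in Cd300lf, 6 in Cd53, 10 in Tlr9, -11 in Vav1, -20 in Inpp5d, -23 in Tlr1, -30 in Adora3, -64 in I830077J02Rik, -172 in S100a8 and -195 in C1qc. In 8 of the 11 promoters it therefore lay within 50 bases of the start, and in the other 3 farther upstream.

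Ctss encodes cathepsin S, a protease of antigen-presenting cells, C1qc a chain of complement C1q, and Cd300lf an inhibitory receptor of myeloid cells. Cd53 is a tetraspanin of leukocytes, Inpp5d the phosphatase SHIP1 and Vav1 a signalling protein of blood cells. The pattern receptor genes Tlr1 and Tlr9, the adenosine receptor gene Adora3, its neighbour I830077J02Rik and S100a8, a calcium-binding protein gene of neutrophils, complete the set. The member on the Cd53 promoter had the authors' fold enrichment 9.93 in Prog-like CK19 against 10.7 in Prog-like Sox9, and the one on the Tlr1 promoter 6.41 and 5.02. The member on the Ctss promoter had 4.82 and 5.16 and the one on the Vav1 promoter 3.91 and 5.30. These are the authors' own values, and members by definition have none in the other lists.

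Members covered 12 promoter windows of 11 genes of the Kupffer cell list, and 0 of the 12 held the full 8 letters. The windows of Clec4f (chr6:83656067-83656366 (minus strand)) and Timd4 (chr11:46810549-46810848 (plus strand)) are shown whole because both genes mark resident Kupffer cells, and the capitals mark the shorter ETS core GGAAGT, found once in each.
Clec4f: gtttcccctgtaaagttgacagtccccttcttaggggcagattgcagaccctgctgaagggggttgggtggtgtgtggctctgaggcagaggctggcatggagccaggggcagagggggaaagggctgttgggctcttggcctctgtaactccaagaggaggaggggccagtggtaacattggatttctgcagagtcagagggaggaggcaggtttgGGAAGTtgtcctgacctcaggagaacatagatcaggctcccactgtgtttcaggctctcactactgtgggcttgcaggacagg
Timd4: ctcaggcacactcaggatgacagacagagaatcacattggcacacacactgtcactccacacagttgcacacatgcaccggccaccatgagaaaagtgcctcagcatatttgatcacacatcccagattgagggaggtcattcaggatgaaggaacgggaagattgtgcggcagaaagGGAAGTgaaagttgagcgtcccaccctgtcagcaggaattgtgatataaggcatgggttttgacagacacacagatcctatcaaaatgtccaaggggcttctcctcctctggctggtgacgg
The window of Vsig4, the complement receptor of Kupffer cells, held the core at 2 places and that of the scavenger receptor gene Marco at 0.

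Members made up a large part of both Prog-like lists. They took in 35802 of the 71375 peaks of Prog-like CK19 (50.2%, 49.8 to 50.5) and 37063 of the 67855 peaks of Prog-like Sox9 (54.6%, 54.25 to 54.996), and 46.6% and 47.3% of the bases those lists cover. The median authors' fold enrichment over members was 7.23 in Prog-like CK19 against 7.90 in Prog-like Sox9, and the median authors' −log10 q was 33.8 and 24.9. Within their own list, 53.2% (CK19) and 49.0% (Sox9) of members lay above the median −log10 q. For regions held by all 5 lists the shares were 84.2% and 80.6%, and for regions of that list alone 1.26% and 2.51%. Members were thus of middle strength in the lists that hold them.

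Within members the peaks of both Prog-like lists lay close together, which the rule fixes in part, since a member must hold a peak of each. Regions of 1 list alone, 9790 for Prog-like CK19 and 5661 for Prog-like Sox9, were left out by the rule. Of the members, 34493 (96.4%) held exactly 1 peak of each, and their summits lay a median of 20 bp apart, with 92.9% within 100 bp. Across these regions the fold enrichments of both lists had a Spearman correlation of 0.883 over 35772 members, a description only, since both lists share base composition and region width. The median member was 535 bp wide and all members together spanned 21.5 Mb. Regions of both EpCAM-high lists only, the 12938 regions held by those lists and no other, had a median width of 489 bp, and the 13529 regions of all 5 lists 1125 bp. Wide members were few: 83 reached 2000 bp, and the widest was 4971 bp.

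At the edges of the rule, 75 members (0.210%) had a −log10 q under 2 in at least 1 Prog-like list, the lowest being 1.33, while 33758 (94.4%) had 5 or more in both. Just outside it, 3945 regions of both Prog-like lists were left out for a peak in 1 other list, where the median −log10 q was 6.73, the lowest 1.35 and 114 were under 2. The nearest peak of the other 3 lists lay a median of 7573 bp away, within 1000 bp for 3223 members (9.01%) and within 100 bp for 178. These distances describe the spacing of called peaks. They do not show whether signal too weak to be called lay at the members themselves.

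Few members lay at gene ends. Of all members 1828 (5.11%, 4.88 to 5.34) had the start or end of a protein-coding gene within 1000 bp, against 11.9% (11.8 to 12.1) of all union regions, 7.68% (7.23 to 8.16) of regions of both EpCAM-high lists only and 63.2% (62.4 to 64.0) of regions of all 5 lists. In the rest of gene bodies lay 52.2% of members (51.6 to 52.7), against 41.9% of the union, 42.1% of the EpCAM-high regions and 19.3% of the regions of all 5 lists. Between genes lay 42.7%, 46.1%, 50.3% and 17.5% in the same order. Members were thus mostly inside genes and the regions of all 5 lists mostly at gene ends. The EpCAM-high regions were split about evenly, with 50.3% between genes (49.4 to 51.1). The annotation used here gives no exons, so exon, intron and UTR positions were not separated.

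**Figure D1:**
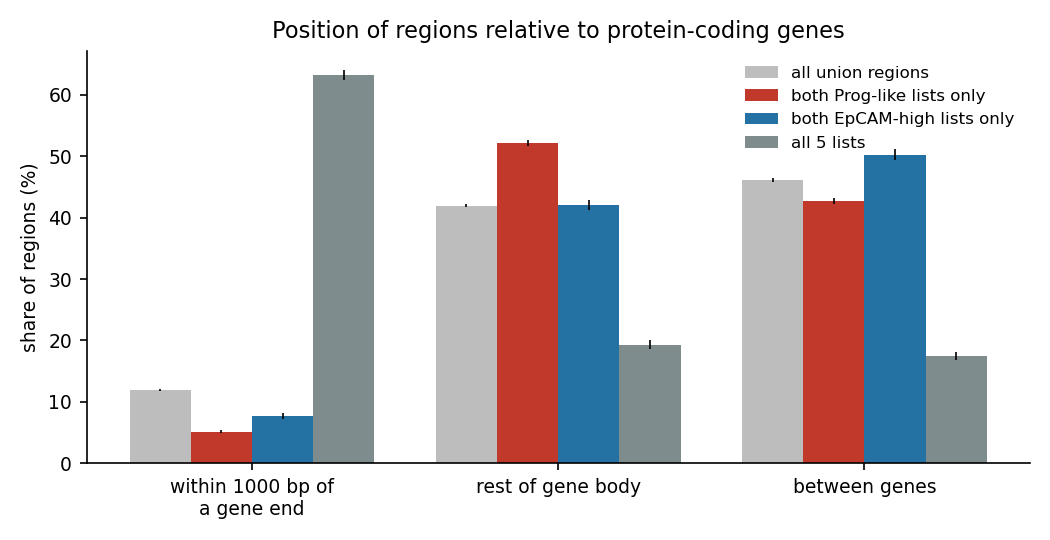
Share of regions (y axis, %) within 1000 bp of a protein-coding gene end, in the rest of gene bodies and between genes, for all union regions, members (both Prog-like lists only), regions of both EpCAM-high lists only and regions of all 5 lists. Bars are shares and lines exact 95% intervals; members stand at 5.11%, 52.2% and 42.7%, and the regions of all 5 lists at 63.2%, 19.3% and 17.5%.

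By distance, members were few at gene ends but not far from them. The median member lay 21.8 kb from the nearest gene end, the median union region 24.6 kb, the median EpCAM-high region 30.3 kb and the median region of all 5 lists 0 kb. More than 100 kb from any gene end were 15.7% of members, 22.8% of the EpCAM-high regions and 23.2% of the union. Within 1000 bp of an annotated RefSeq start were 873 members (2.44%, 2.28 to 2.61), 5.47% of the EpCAM-high regions and 55.8% of the regions of all 5 lists. The share of union regions that were members ran from 23.1% (chromosome 3) to 27.5% (X) and 27.6% (chromosome 13), against 25.8% over the union. The Y chromosome held 0 members, and Prog-like CK19 had 0 peaks on it against 22 in Prog-like Sox9.

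Members were grouped along the genome. When members up to 12500 bp apart were joined, 16403 of them (45.9%, 45.3 to 46.4) fell into 3706 clusters of 3 or more, 133 clusters held 10 or more, and the largest held 26. Regions of both EpCAM-high lists only fell into such clusters in 14.4% of cases (13.83 to 15.05), with 0 clusters of 10 or more, and regions of all 5 lists in 8.83%. The classes differ in number, and such a share moves with the number of regions. With the strongest 12938 members, as many as there are EpCAM-high regions, 19.3% (18.62 to 19.98) were in clusters of 3 or more and 1 cluster held 10. In another count that takes the order of regions alone, 39.1% of members lay in runs of 3 or more members with no other region between them, the longest of 18, against 14.4% of the EpCAM-high regions with a longest run of 9. Among the strongest members alone the run share was 10.4%, under that of the EpCAM-high regions. There the remaining members counted as other regions that break a run, so this count cannot compare the classes at equal numbers.

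**Figure D2:**
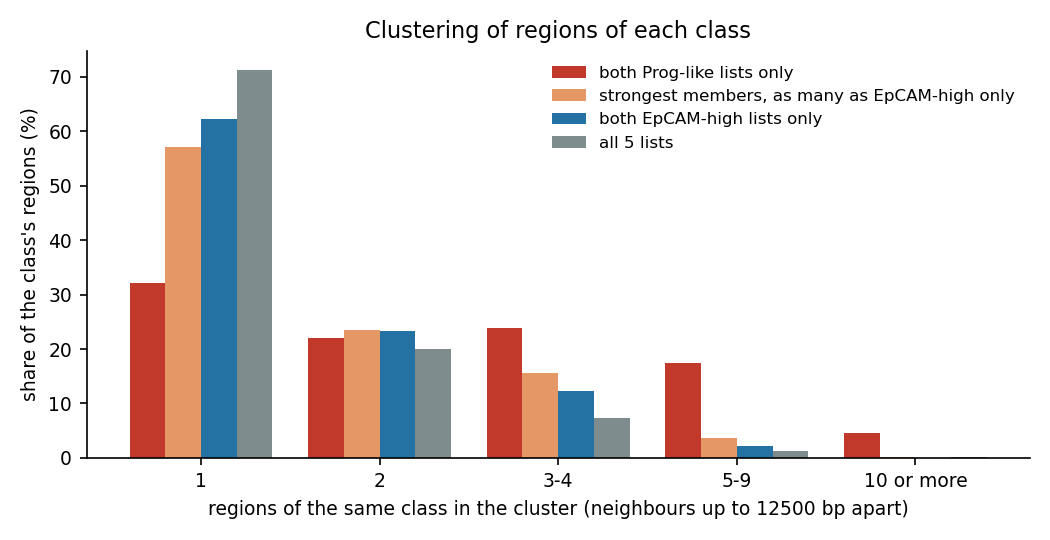
Share of the regions of each class (y axis, %) by the number of regions of that class in their cluster (x axis), joining neighbours up to 12500 bp apart. Of all members 32.1% stood alone and 4.52% were in clusters of 10 or more, while 62.3% of EpCAM-high regions and 57.1% of the equally many strongest members stood alone.

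The 10 largest clusters are described by the genes in or nearest to them. The first, 26 of the 33 union regions over 138 kb of chromosome 10 (34112297 to 34250019), spanned Calhm6, a gene of activated macrophages, and Dse, which encodes a dermatan sulfate epimerase. It held 30 and 32 peaks in Prog-like CK19 and Sox9, 3 and 2 in EpCAM-high CK19 and Sox9, and 0 in Tumor Sox9. The second, 24 of 36 regions over 141 kb of chromosome 19 (29380596 to 29521329), spanned Cd274 and Pdcd1lg2, which encode the immune checkpoint ligands PD-L1 and PD-L2. Its peaks numbered 30, 32, 4, 3 and 5 in the same order. That Prog-like peaks outnumber the others in such clusters follows from the choice of members. The lists also differ in length, which bears on every count of peaks by list. Tumor Sox9 was the shortest with 39644 peaks, and both EpCAM-high lists held fewer peaks than either Prog-like list. A low count or 0 in a list does not show that a site was closed.

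A cluster of 20 members among 23 regions (chromosome 8, 115555298 to 115659816) lay between genes, nearest to Maf, which encodes the macrophage and lymphocyte factor c-MAF. Its gene with 10 kb on each side held 3 members, whereas 28 members in all had Maf as nearest gene. A further 20 members among 28 regions lay along Rcsd1, 18 among 26 along Ubac2 with the G protein-coupled receptor genes Gpr18 and Gpr183 inside it, and 18 among 28 at Tmigd3, Adora3 and I830077J02Rik. Nearest to Zfp36l2, which encodes an RNA-binding protein that promotes mRNA decay, lay 18 of 27 regions, and nearest to the small GTPase gene Rap1b 17 of 23.

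The ninth cluster covered Havcr1 and Timd4 (chromosome 11, 46774662 to 46849022). Timd4 encodes TIM-4, a receptor for phosphatidylserine on dying cells that marks resident Kupffer cells, and Havcr1 its relative TIM-1. Of its 20 regions 17 were members, with 18 and 20 peaks in Prog-like CK19 and Sox9 and 0 in each of the other 3 lists. The tenth held 17 of 27 regions at Rcbtb2, Rb1 and Lpar6 (chromosome 14, 73160522 to 73257639). Rb1 is 1 of the genes named by the mouse model, and Lpar6, a receptor for lysophosphatidic acid, lies within it. That cluster had 24, 21, 3, 4 and 5 peaks in Prog-like CK19, Prog-like Sox9, EpCAM-high CK19, EpCAM-high Sox9 and Tumor Sox9.

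**Figure D3:**
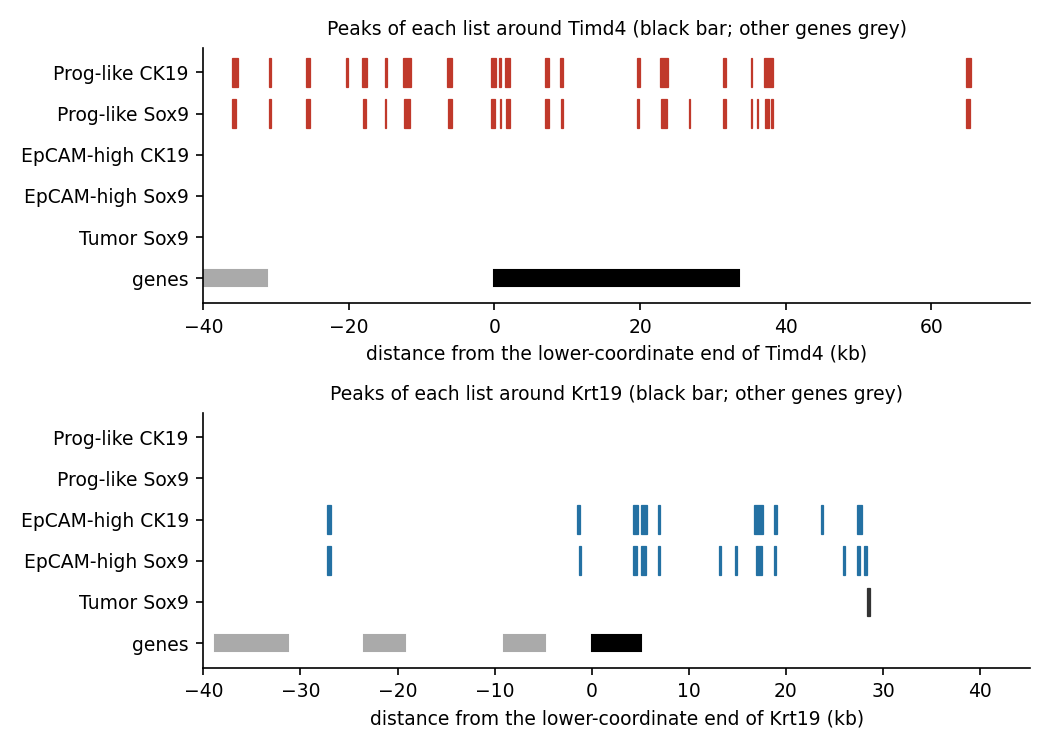
Peaks of each list (rows) within 40 kb of Timd4 (top) and Krt19 (bottom), by distance in kb from the lower-coordinate end of the gene (black bar; other protein-coding genes grey). Around Timd4 the Prog-like lists had 19 and 21 peaks and the others 0, and around Krt19 the EpCAM-high lists had 9 and 12, Tumor Sox9 1 and the Prog-like lists 0.

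Over the 21887 protein-coding genes of the annotation, 9783 (44.7%) had at least 1 member in the gene or 10 kb on either side, called the locus here, 1661 (7.59%) had 5 or more, and 1780 (8.13%) had a member within 1000 bp of a gene end. The median gene had 0 members. Gene lists were read against these shares and against the share of all union regions in gene loci that were members, 27.9%. Regions of both EpCAM-high lists only made up 8.66% of the union regions in gene loci. The lists were compiled from textbook markers with earlier results of these data known, so they describe the members and support nothing independently.

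Kupffer cell genes held members almost throughout. Of the 21 genes of this list, 20 had a member in the locus, 10 had 5 or more and 15 had one at a gene end, and members were 110 of the 182 locus regions (60.4%, 52.9 to 67.6), against 2 regions of both EpCAM-high lists only. This share did not set Kupffer cell genes apart from leukocyte genes in general. It was 56.3% (47.7 to 64.5) for macrophage and monocyte genes and 55.3% (47.9 to 62.5) for pan-leukocyte genes, with overlapping intervals. Timd4 had 11 members among 13 regions. Its locus peaks numbered 11 (Prog-like CK19) and 14 (Prog-like Sox9) and 0 in EpCAM-high CK19, EpCAM-high Sox9 and Tumor Sox9. Vsig4, which encodes the complement receptor CRIg, had 11 of 14, with 14, 11, 0, 0 and 0 peaks in that order. Mrc1, the mannose receptor gene, had 15 of 22 (17, 20, 4, 5 and 1 peaks), and Cd38, which encodes an NAD-consuming ectoenzyme, 9 of 20 (15, 17, 3, 4 and 2).

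Clec4f, a lectin gene used as a Kupffer cell marker, had 5 members among 8 regions, with peaks in the Prog-like lists alone (6 and 7). All 7 regions of Marco and all 3 regions of Spic, which encodes a factor needed by iron-recycling macrophages, were members. In contrast the factor gene Id3 had 0 members among 5 regions, and Nr1h3, which encodes LXRα, had 3 among 8. Nr1h3 carried 3 peaks in each of the EpCAM-high lists and Tumor Sox9 beside 8 and 6 in the Prog-like lists. The markers TIM-4, CRIg and CLEC4F thus had peaks in the Prog-like lists alone, while the loci of LXRα and ID3 had peaks in all 5 lists.

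Genes of macrophages and monocytes in general had members at 20 of 22 loci, at a gene end in 17, and members were 56.3% of their locus regions (47.7 to 64.5) with 0 EpCAM-high regions. The neighbouring genes C1qa, C1qb and C1qc share members, so their loci are not separate counts. Adgre1, which encodes F4/80 and stands on the Kupffer cell list, had 5 among 8. The member across its lower-coordinate end (chromosome 17, 57358197 to 57359130) had fold 9.21 in Prog-like CK19 against 7.33 in Prog-like Sox9. Ctss had 6 among 6, and the receptor tyrosine kinase genes Axl and Mertk, which serve the uptake of dying cells, 7 among 10 and 14 among 23. Lyz2, the macrophage lysozyme gene, had 5 among 6. The scavenger receptor gene Msr1 had 9 among 15. In the growth factor receptor gene Csf1r, 4 of 12 regions were members and 3 EpCAM-high Sox9 peaks were present. Lower on the list, Aif1 had 2 among 6, Mpeg1 1 among 6 and Cd68 0 among 4, with Cd68 holding peaks in all 5 lists. Ly6c2 had 0 regions of any kind.

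Myeloid transcription factor genes had members at 18 of 20 loci and at a gene end in 7, with 47.0% of locus regions being members (40.4 to 53.6). Spi1, which encodes PU.1, had 6 members among 11 regions. Across these 6 members the authors' fold ran from 2.99 to 9.53 in Prog-like CK19 against from 3.61 to 9.62 in Prog-like Sox9, and the member at 91096317 to 91097448 of chromosome 2 was the highest in both lists. The locus of Spi1 also held 1, 1 and 3 peaks in EpCAM-high CK19, EpCAM-high Sox9 and Tumor Sox9, against 7 in each Prog-like list. Zeb2, a factor that keeps Kupffer cell identity, had 16 among 36 in its locus and was the nearest gene of 64 members. Mitf had 15 among 28, Rxra, the partner of LXR, 12 among 28, and Tfec 12 among 15.

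Sensing and signalling genes of innate immunity had members at 18 of 18 pattern-receptor loci (52.4% of locus regions) and at 19 of 20 cytokine and chemokine loci (51.3%). Nod1 had 9 members among 13 regions, and the endosomal Toll-like receptor genes Tlr7, Tlr13 and Tlr8 had 7 among 9, 6 among 8 and 6 among 9. Tnf had 5 among 8, Il1a 5 among 6, and the neighbouring chemokine genes Ccl3 and Ccl4, whose loci overlap and share members, 4 among 6 and 6 among 10. Antigen presentation genes had members at 13 of 13 loci (52.7%), led by the costimulator gene Cd86 (14 among 18), the class II regulator gene Ciita (10 among 19) and Cd83 (7 among 10), which together held most of the 48 members of the list. The class II genes themselves held fewer: H2-Eb1 had 4 among 7 and H2-Oa 2 among 3, while H2-Aa (of 4 regions), H2-Ab1 and H2-Ob (of 3 each) and H2-DMa, H2-DMb1 and H2-DMb2 (of 5 each) had 1. These genes lie close together, and neighbouring loci can share members.

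Genes of iron and heme handling, not all of them particular to macrophages, had members at 12 of 15 loci but at 34.7% of locus regions (25.36 to 44.98). That interval holds the 27.9% of all genes. Cd163, the receptor for haptoglobin and hemoglobin, had 8 among 9, and its Prog-like peaks numbered 9 (CK19) against 8 (Sox9), beside 0 in the other lists. Hmox1, heme oxygenase, had 4 among 8 and its repressor gene Bach1 5 among 12. In Slc40a1, the iron exporter ferroportin, 1 of 10 regions was a member and the 5 lists held between 5 and 7 peaks each.

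**Figure D4:**
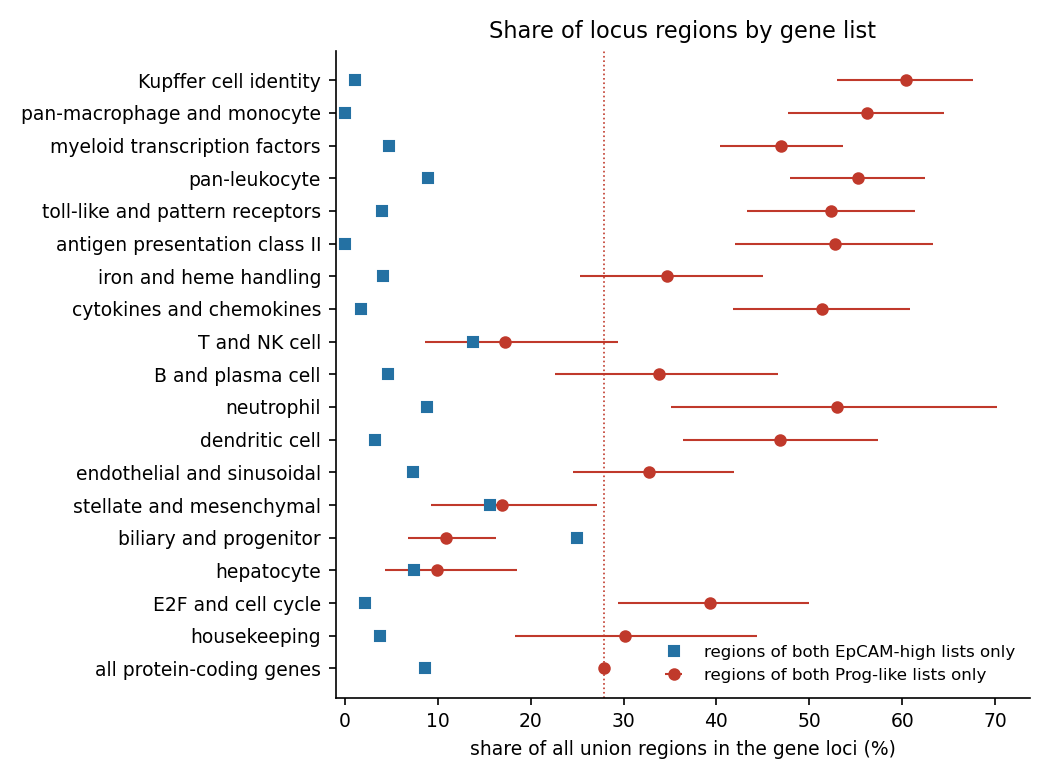
For each gene list, the share (x axis, %) of all union regions in its loci that were members (circles, with exact 95% intervals) or regions of both EpCAM-high lists only (squares), with the share of members over all protein-coding genes as a dotted line at 27.9%. The list of Kupffer cell identity stands at 60.4%, the pan-leukocyte list at 55.3% and that of biliary and progenitor genes at 10.9%, where 46 of 184 regions were of both EpCAM-high lists only. Over all protein-coding genes the squares stand at 8.66%.

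The bile duct and progenitor genes that the name Prog-like would call for held few members. Of 20 such genes 10 had one in the locus (against 44.7% of all genes), 1 had one at a gene end, and members were 20 of 184 locus regions (10.9%, 6.77 to 16.3), under the 27.9% over all genes. In the same loci 46 regions (25%, against 8.66% over all gene loci) were of both EpCAM-high lists only. Krt19 and Sox9, whose products are the usual marker proteins of these cells, had 0 members among 6 and 4 regions. Epcam, the sorting marker, had 2 members among 4 regions, with 3 peaks in each Prog-like list, 2 in each EpCAM-high list and 1 in Tumor Sox9. Prom1, a stem and progenitor marker gene, had 6 among 16. The members are therefore named here by the rule that chose them and not as progenitor sites.

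Thy1, the other sorting marker, had 0 regions of any kind in its locus. Hepatocyte genes had members at 4 of 20 loci and at 9.88% of locus regions (4.36 to 18.5), with Alb at 0 among 5 and the hepatocyte factor gene Hnf4a at 2 among 11. Stellate and mesenchymal genes had members at 4 of 18 loci (16.9% of locus regions, 9.31 to 27.1), with the stellate gene Lrat at 0 among 1. Pdgfrb had 6 among 10 and Acta2 4 among 8. Members were thus scarce at hepatocyte and stellate genes as well.

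Genes of other blood and vessel cells were covered unevenly. The pan-leukocyte list had members at 18 of 18 loci (55.3% of locus regions, 47.9 to 62.5), among them Ptprc, the CD45 gene, with 9 among 16, Inpp5d with 11 among 13, Fyb with 11 among 23 and Dock2 with 12 among 30. In Dock2 a further 10 regions were of both EpCAM-high lists only. T and NK cell genes had members at 6 of 18 loci (17.2%, 8.59 to 29.4). Cd4 had 4 among 7, the NK receptor gene Klrk1 3 among 4, and the CD3 chain genes Cd3d and Cd3g 1 among 1 and 1 among 3, while Cd3e had 0 regions of any kind. B and plasma cell genes had members at 8 of 12 loci (33.8%). Prdm1, a plasma cell factor gene, had 9 among 19, Cd22 3 among 3, Blk 3 among 7, Cd79b 2 among 2 and Cd79a 0 among 4. Neutrophil genes had members at 7 of 12 (52.9%, 35.1 to 70.2), with Csf3r at 5 among 7 and S100a8 at 2 among 3. Dendritic cell genes had them at 11 of 12 (46.8%, or 44 members among 94 regions). Tcf4 alone held 22 among 45, so this share rests largely on it, and the median gene of the list had 2 members.

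Endothelial and sinusoidal genes had members at 10 of 17 loci and at 32.8% of locus regions (24.6 to 41.9). Stab2, a scavenger receptor of liver sinusoidal cells, had 9 among 18, Vwf 8 among 15, Kdr 3 among 6 and Lyve1 1 among 7. The sort described in the labels used YFP, Thy1 and EpCAM, and no leukocyte or macrophage gate is described. The part that macrophages among the sorted cells have in these regions was not tested.

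E2F and cell cycle genes, which Rb proteins restrain, had members at 10 of 16 loci and at 39.4% of locus regions (29.44 to 49.98), with 2 at a gene end. With each list reduced to the length of the shortest, 4 of 16 had one, a smaller share than the 30.99% of all genes in that setting. Mki67 had 6 among 11, Mcm5 4 among 6, Rb1 itself 11 among 23 and its relative Rbl2 5 among 8. The loci of Mcm5 and Hmox1 overlap on chromosome 8. Housekeeping genes had members at 6 of 12 loci and at 30.2% of locus regions (18.3 to 44.3), close to the share over all genes.

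The genes with the most members were long, with a median length of 551 kb over the leading 15 against 17.2 kb over all protein-coding genes, and across genes the number of members and gene length had a Spearman correlation of 0.432 (21887 genes, a description). Hdac9, a class IIa histone deacetylase gene of 870 kb, had 39 members among 75 regions, with 50 (CK19) and 44 (Sox9) Prog-like peaks, 13 and 12 EpCAM-high peaks and 2 in Tumor Sox9. Next were Lpp (35 among 88), Dpp10 (32 among 93), the factor gene Zfhx3 (31 among 81), and Dock4 and Snx29 (30 each, among 62 and 50). Immp2l had 29 among 67, and Maml2, which encodes a Notch coactivator, Tenm4 and the calcium channel gene Itpr1 28 each. With 27 each followed Dip2c, Rad51b, Zbtb20, Adgrv1 and Cask, and in Cask these were 27 of 37 regions. Of the 15, only Cask, Snx29, Hdac9, Dip2c, Rad51b, Maml2 and Tenm4 had members at 50% or more of their regions.

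Per length of locus the order changed to short genes, with a median length of 4.51 kb over the leading 15. Among them were genes of myeloid cells and others. Il10ra, the interleukin-10 receptor gene through which macrophages are held in check, had 9 members among 13 regions, with 12 peaks in each Prog-like list and 0 in the other 3. The formyl peptide receptor genes Fpr1 and Fpr2, neighbours that share members, had 8 and 7 among 10 regions each. Ltb and Tnf, neighbours on chromosome 17, had 6 among 9 and 5 among 8. Lyz1, beside Lyz2, had 6 among 6. Tifab, Sost and Catip also had 6 among 6, each with 6 (CK19) against 7 (Sox9) Prog-like peaks, beside 0 elsewhere.

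Gngt2 had 6 members among 10 regions, Adora3 6 among 7, the leukotriene synthase gene Ltc4s 5 among 6 and the chemoattractant receptor gene Ccrl2 5 among 7. The olfactory receptor genes Olfr433 (7 among 11, 33.3 members per 100 kb of locus, the highest value) and Olfr432 (6 among 9) lie side by side on chromosome 1 and share members. A member within 10 kb of a gene does not show that it acts on that gene, and in such short genes most of the counted stretch is flank.

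The members with the highest −log10 q did not lie at the genes of the lists. Ranked by the smaller of the authors' values in both Prog-like lists, the first lay on an unplaced scaffold (−log10 q 551 in Prog-like CK19 against 436 in Prog-like Sox9) but had fold enrichments of only 7.29 and 7.62. The second (chromosome 8, 53495944 to 53496910) lay 14.8 kb from Aga, with fold 21.01 and 25.02. Next came members 216 kb from 1700017N19Rik, 16.3 kb from Robo2, and 55.5 and 8.86 kb from Agtr1b, an angiotensin receptor gene. The seventh and eighth lay inside the long genes Nbea and Cntnap2, the ninth at a gene end of Mroh2a and the tenth 19.9 kb from Chmp2b. Aside from the scaffold, folds of these 10 ran from 15.01 to 21.20 in Prog-like CK19 against from 16.9 to 25.2 in Prog-like Sox9.

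The promoter windows covered by members differed in sequence from other promoter windows. GAGGAAGT, on either strand, was in 66 of the 547 member windows (12.1%, 9.46 to 15.1), against 3.13% (2.90 to 3.38) of all 21263 windows, 2.27% (1.21 to 3.85) of the 573 windows covered by regions of both EpCAM-high lists only and 2.75% (2.42 to 3.10) of the 9398 covered by regions of all 5 lists. The same letters in reverse order (TGAAGGAG), which keep the composition, were in 2.74% of member windows (1.54 to 4.48) and 1.77% of all windows. Of the 66 windows 39 (59.1%, 46.3 to 71.0) had the match within 50 bases of the annotated start, against 48.5% (44.6 to 52.4) of the 666 windows with the letters in all and 38.4% (32.4 to 44.6) of those covered by regions of all 5 lists. Of the 13 EpCAM-high windows with the letters it was 38.5% (13.9 to 68.4). The member interval overlapped those of all windows and of the EpCAM-high windows, and stayed apart from that of the regions of all 5 lists alone. A match near the start is therefore not a trait particular to members.

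The shorter core GGAAGT, which GAGGAAGT contains, was in 42.4% of member windows (38.2 to 46.7), 24.8% of all windows and 16.9% of the EpCAM-high windows. A tandem of 2 GAAA units with any 2 bases between them, the form that IRF factors bind, was in 10.1% (7.66 to 12.9), 3.35% and 1.57%. The RUNX letters TGTGGTTT were in 4.57% (2.98 to 6.67), 1.61% and 1.22%. For the AP-1 letters TGACTCA the EpCAM-high windows were not lower, with 7.86% of member windows (5.75 to 10.4), 4.66% of all windows and 9.08% of EpCAM-high windows (6.85 to 11.7). The MAF letters TGCTGAC stood at 6.03%, 4.30% and 5.41%, and the TEAD letters GGAATG at 14.8%, 13.6% and 15.01%. Letters of macrophage factors were thus more frequent under members for ETS, IRF and RUNX, and not for AP-1 or MAF when set against the EpCAM-high windows. These shares are not adjusted for base composition.

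**Figure D5:**
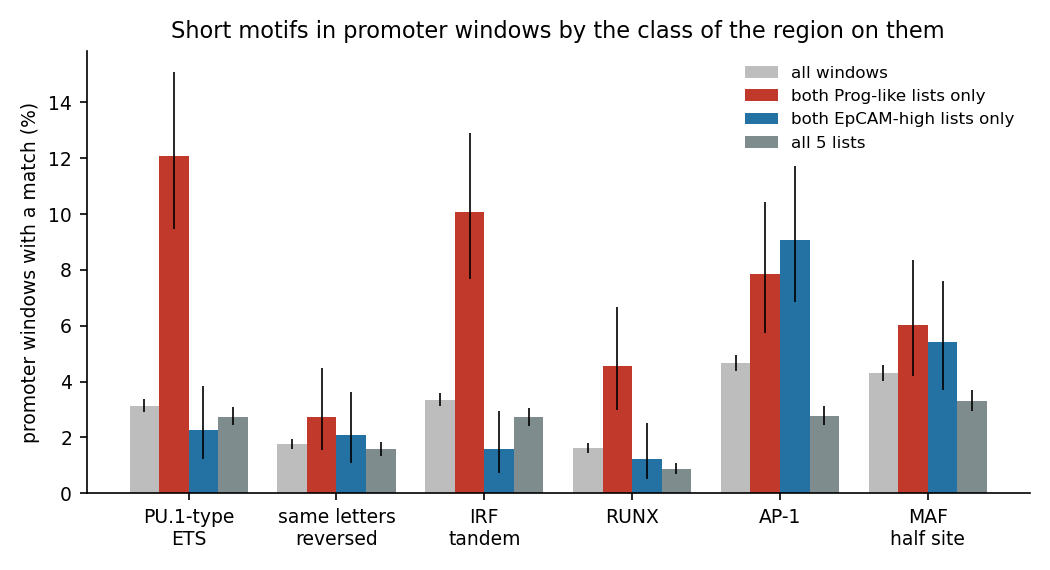
Share of RefSeq promoter windows (y axis, %) that hold each short motif on either strand, for all windows and for windows covered by members (both Prog-like lists only), by regions of both EpCAM-high lists only and by regions of all 5 lists, with exact 95% intervals. The PU.1-type site stood at 12.1% of member windows and 3.13% of all windows, and the same letters reversed at 2.74% and 1.77%.

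Base composition moved with these shares. The median GC content was 50.3% in member windows, 56.3% in all windows, 59.3% in the EpCAM-high windows and 62.3% in the windows of regions of all 5 lists. The GC box GGGCGG was in 23.2% of member windows and 46.2% of all, and the TATA letters TATAAA in 15.4% and 12.6%. Within bands of GC content, GAGGAAGT was in 11.0% of member windows under 45% GC against 4.42% of all windows there. In the bands from 45% up to 60% it was in 11.9% to 15.1% of member windows against 3.17% to 4.13%, and from 60% up in 7.79% (2.91 to 16.2) against 2.22%. The share was thus higher under members than over all windows in each band, with wide member intervals throughout. Of the 33 EpCAM-high windows under 45% GC it was in 9.09% (1.92 to 24.3), near the share of members there. In the higher bands it was in 0% to 4.17% of EpCAM-high windows. The other letters, those of IRF and RUNX among them, were not compared within GC bands or with reversed letters. Whether their shares follow base composition was not tested. A match is a description of letters and not a bound site, and the windows cover 547 promoters, while nearly all members lie outside them and had no sequence in the tables used.

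MicroRNA genes were examined with RefSeq hairpins of the same build. Of 1005 hairpins 48 (4.78%) had a member within 1000 bp, against 18 (1.79%) with a region of both EpCAM-high lists only. Members numbered 35772 and those EpCAM-high regions 12938, so the larger count does not show that members favour hairpins. The microRNAs below were picked from the 48 after their values were seen, because they are known from blood cells and macrophages. Mature sequences are shown with the seed, bases 2 to 8, in capitals, and miR-146a and miR-146b share the seed GAGAACU.
mmu-miR-146a-5p: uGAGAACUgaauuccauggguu
mmu-miR-146b-5p: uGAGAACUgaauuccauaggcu
mmu-miR-155-5p: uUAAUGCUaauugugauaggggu
mmu-miR-223-3p: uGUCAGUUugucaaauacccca
mmu-miR-142a-3p: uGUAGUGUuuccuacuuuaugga
mmu-miR-511-3p: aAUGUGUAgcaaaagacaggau
Mir223, a myeloid microRNA gene, lies on the X chromosome in the flank of Vsig4, and all 5 union regions within 10 kb of it were members. The nearest overlapped the hairpin and had −log10 q 7.21 in Prog-like CK19 against 3.99 in Prog-like Sox9. Mir146, induced by NF-κB, had 3 of 3 regions within 10 kb as members, and the member within 1000 bp had −log10 q 63.9 and 80.0. Mir511 lies within Mrc1 and had 3 of 4, with 83.6 and 54.0 at the member within 1000 bp. Mir142 had 3 of 5, Mir146b 1 of 4 and Mir155 1 of 3.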

How the data were processed

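Bulk ATAC-seq peak lists of 5 conditions were analysed. Bowtie 1.1.2, deepTools, HOMER and MACS2 are listed, per the submitters' processing notes, with build mm10 and without roles or order. Whether libraries were pooled, and how reads were shifted, filtered or deduplicated, is not given in the sources used here. The deposited lists are in narrowPeak layout, in which the authors give each peak a linear ratio, its fold enrichment, and as significance −log10 p and −log10 q. These values were used only to describe or rank peaks within a list. Genes, promoter windows and hairpins came from RefSeq tables of GRCm38.p6, the assembly that mm10 names. The tables give no exons and no genome sequence.

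Union regions, positions, loci (10 kb flanks), clusters (12500 bp) and letter searches were computed with Python 3.11.15, pandas 2.3.3, numpy 2.4.6 and scipy 1.17.1, and checked on simulated peaks. Members and the 18 gene lists (298 distinct symbols, 297 matched) were chosen with earlier results of these data known. Named genes were the 15 with the most members, the 15 with the most per 100 kb of locus among genes with at least 5, those at the 10 largest clusters and the 10 members of highest −log10 q, up to 4 leading genes per list, and a fixed set of markers. Other genes on the lists, such as Marco and Tlr1, were named after their values were seen. Promoters with the letters were shown for list genes and named genes covered by a member, and Clec4f and Timd4 as examples without them.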

Additional observations from a re-analysis of the deposited data

How the results depend on the processing

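No paired analysis was possible because each condition has 1 peak list, without values per replicate. For the same reason no replicate could be left out, and depth is unknown. With each list reduced to 39644 peaks, members numbered 19825, of which 51.0% lay in gene bodies and 29.8% in clusters of 3 or more. Regions of both EpCAM-high lists only then numbered 9550, with 10.4% in such clusters. The classes thus still differed in number, and these cluster shares do not compare them at equal numbers. In the same setting 5 biliary and progenitor, 4 E2F and cell cycle, 3 housekeeping and 2 hepatocyte genes had a member (10, 10, 6 and 4 as reported). The median Kupffer cell gene then had 2 members in place of 4. At −log10 q of 5 or more, 5.46% lay at gene ends and 51.6% in gene bodies. With no peak of the other 3 lists within 1000 bp, 4.70% lay at gene ends and 42.4% in clusters. Where Prog-like peaks had to cover at least 50% of the region, 42.1% were in clusters. A gene-end window of 2500 bp gave 10.6% at gene ends and 49.1% in gene bodies, and stitching at 25 kb gave 67.6% in clusters. Flanks of 50 kb gave a member to 16 biliary and progenitor genes and to 14889 protein-coding genes. Among alternatives chosen after seeing the data, the strongest 12938 members gave 19.3% in clusters and the reversed letters 2.74% of promoter windows. Kupffer cell genes with a member numbered 16 (gene body alone) to 21 over the alternatives tried. For the number of members, the position and clustering shares and the Kupffer, biliary and all-gene counts, the other values moved less than their interval or by less than 1.5 times.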
